A study of Mus musculus with 11 samples.

Results

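Splicing and gene expression in N2A (Neuro-2A) cells, which derive from a mouse neuroblastoma and have neuronal character, were compared after knockdown of Khsrp and Fubp1 together (double knockdown, 2 libraries) and after knockdown of Fubp1 alone (2 libraries). These 4 of the 11 libraries in the series give the change that comes with adding Khsrp loss to cells already short of Fubp1. All 11 cultures received pooled short interfering RNAs, the controls a non-targeting pool (siNT, 3 libraries), and were harvested 48 h after transfection. Khsrp knockdown alone (2 libraries) and siNT served as references, and 2 Rbm38 knockdown libraries entered the fit without being described. Polyadenylated RNA was sequenced from 1000 ng of total RNA per sample with inserts averaging 540 nt. The replicates carry letters, but nothing says that they came from separate cultures, so p-values measure only the spread between these libraries, which may be technical. The Fubp1 knockdown libraries are numbers 2 and 4 and the double knockdown libraries numbers 8 and 20. The siNT libraries A and B belong to the same low numbers as Fubp1 knockdown (1 to 4, the first set), while Khsrp knockdown, double knockdown and siNT library C lie between 8 and 27 (the later set). Treatment and library set therefore cannot be told apart in a direct comparison, and a control-referenced difference is given beside the direct one.

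Fubp1 (far upstream element binding protein 1), Khsrp (KH-type splicing regulatory protein, also called Fubp2) and Fubp3 form a family of single-strand nucleic acid binding proteins with repeated KH domains. Khsrp is known for binding AU-rich elements and hastening decay of the transcripts that carry them, for helping microRNA precursors to be processed, and for acting on the neuronal exon of Src. Fubp1 is known as an activator of Myc transcription and as a splicing factor that binds pyrimidine-rich intron sequence near the 3′ splice site. Splicing was read as PSI, the percentage of a gene's transcripts that include an exon or retain an intron. Microexons, the very short exons abundant in neuronal transcripts, are counted here as exons of at most 27 nt.

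The exons below carry the main changes and are shown before their values. Each exon is in capitals between 12 bases of the neighbouring exons in lower case, 5′ to 3′ in the sense of the transcript, from GENCODE vM21 with GRCm38 coordinates. All 11 lie inside the coding sequence of the matched transcript. The first 6 are microexons that were lower in double knockdown.
Senp6 21 nt (chr9:80098886-80098906, plus strand): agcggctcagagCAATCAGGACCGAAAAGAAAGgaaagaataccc
Clasp2 24 nt (chr9:113878750-113878773, plus strand): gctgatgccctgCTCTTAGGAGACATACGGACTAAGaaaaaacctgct
Synj1 24 nt (chr16:90971564-90971587, minus strand): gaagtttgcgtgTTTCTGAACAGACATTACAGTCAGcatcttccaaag
Nbea 9 nt (chr3:55994048-55994056, minus strand): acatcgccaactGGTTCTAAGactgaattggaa
Nckap1 18 nt (chr2:80571213-80571230, minus strand): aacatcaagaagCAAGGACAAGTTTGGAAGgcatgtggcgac
Sh3glb1 24 nt (chr3:144699854-144699877, minus strand): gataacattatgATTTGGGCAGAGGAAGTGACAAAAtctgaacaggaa
The next 3 are longer exons that were lower, and the last 2 are exons that were higher.
Pikfyve 84 nt (chr1:65264347-65264430, plus strand): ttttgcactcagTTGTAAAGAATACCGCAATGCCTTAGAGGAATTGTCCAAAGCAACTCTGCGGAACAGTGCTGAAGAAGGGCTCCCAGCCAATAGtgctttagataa
Cenpk 47 nt (chr13:104236179-104236225, plus strand): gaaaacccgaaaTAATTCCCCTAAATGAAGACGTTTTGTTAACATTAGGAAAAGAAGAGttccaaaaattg
Ptbp2 34 nt (chr3:119724612-119724645, minus strand): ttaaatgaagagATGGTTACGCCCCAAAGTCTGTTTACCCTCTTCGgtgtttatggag
Evl 63 nt (chr12:108683348-108683410, plus strand): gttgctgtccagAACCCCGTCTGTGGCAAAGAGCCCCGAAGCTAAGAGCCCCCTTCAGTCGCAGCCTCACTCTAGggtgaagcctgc
Dst 111 nt (chr1:34303421-34303531, plus strand): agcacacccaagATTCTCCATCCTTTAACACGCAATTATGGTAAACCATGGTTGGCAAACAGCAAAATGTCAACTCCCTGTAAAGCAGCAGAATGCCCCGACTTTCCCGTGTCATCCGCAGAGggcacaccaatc

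Adding Khsrp knockdown to Fubp1 knockdown was accompanied mainly by lower PSI among the called events, and the direction varied with the starting PSI. Of 60139 events tested, 1198 (1.99%) in 876 genes passed limma's moderated test at a Benjamini-Hochberg adjusted p of 0.05 with a difference of at least 10 PSI points. Of these called events, 870 were lower in double knockdown (1.45% of the events tested) and 328 were higher (0.545%). The median difference was -23.7 points among the lower and 22.1 points among the higher events. Most tested exons started near full inclusion, where they can hardly rise. Of 14709 exons at 80 to 100 PSI in Fubp1 knockdown, 506 were called lower and 34 higher. At 20 to 80 PSI 233 were lower and 152 higher of 2466, and at 0 to 20 PSI 9 were lower and 88 higher of 4144. The groups of 2 libraries did not overlap in 1197 of the 1198 called events, against 46.7% of all events tested. The events called lower had a median PSI of 93.8 in siNT, 91.4 in Khsrp knockdown, 88.5 in Fubp1 knockdown and 54.6 in double knockdown. The events called higher had medians of 33.1, 40.2, 34.1 and 65.8 in the same order. Both single knockdowns thus sat close to siNT at the median. The events were called on the difference between double and Fubp1 knockdown, so the gap between these groups and their lack of overlap follow from the call.

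The depth was lower in the double knockdown libraries, with a median of 133 and 99 reads per tested event in replicates A and B, against 195 and 168 in Fubp1 knockdown. The replicates differed beyond counting error in 12.2% of events in double knockdown and in 13.2% in Fubp1 knockdown. With a term for the library set, which refers double knockdown to siNT C and Fubp1 knockdown to siNT A and B, 106 events were called (0.176%), of which 15 were higher and 91 lower. The set-adjusted difference kept the direction of the direct difference in 1195 of the 1198 called events, with a median of -17.2 points against -18.5 points for the direct difference. Both differences hold the same double and Fubp1 knockdown libraries, and 5326 of 5661 tested events with a direct difference of at least 10 points kept it too, as did 44481 of the 59340 with a nonzero difference, so nothing is read from this count. Of the 1198, 77 also had an adjusted p under 0.05 by limma with that term, which rests on 1 later siNT library. Without any 1 of the 4 libraries the count fell: to 251 without double knockdown A, 276 without double knockdown B, 397 without Fubp1 A and 534 without Fubp1 B.

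Microexons were called most often among the event types. Of 478 tested, 64 were called (13.4%), 58 lower and 6 higher, against 4.6% of 20841 longer cassette exons, 0.504% of 26596 introns, 0.37% of 7032 alternative 3′ sites and 0.308% of 5192 alternative 5′ sites. The 64 entries describe 63 exons, because the Senp6 microexon is listed in 2 entries with different neighbouring exons. Their lengths were divisible by 3 in 59 of 64 called entries and in 370 of 478 tested, and 54 of the 64 lay in coding sequence, as did 321 of the 478 tested. The 58 lower microexons had a median PSI of 77.4 in siNT, 66.5 in Khsrp knockdown, 65.8 in Fubp1 knockdown and 31.4 in double knockdown. Among exons with a PSI of 20 to 80 in Fubp1 knockdown, where a change in either direction is measurable, 14 of 48 exons of 3 to 15 nt were lower and 1 was higher. In the same range 21 of 78 exons of 16 to 27 nt were lower and 2 higher, while exons of 28 to 60 nt were split evenly, with 37 lower and 36 higher of 392. Exons above 60 nt, taken in classes of rising length, leaned lower too. They had 79 lower and 66 higher of 1023, then 58 and 35 of 655, then 24 and 12 of 270. The lean was thus not confined to microexons. The share called lower was 29.2% and 26.9% in the microexon classes and between 7.72% and 9.44% in the longer classes.

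**Figure D1:**
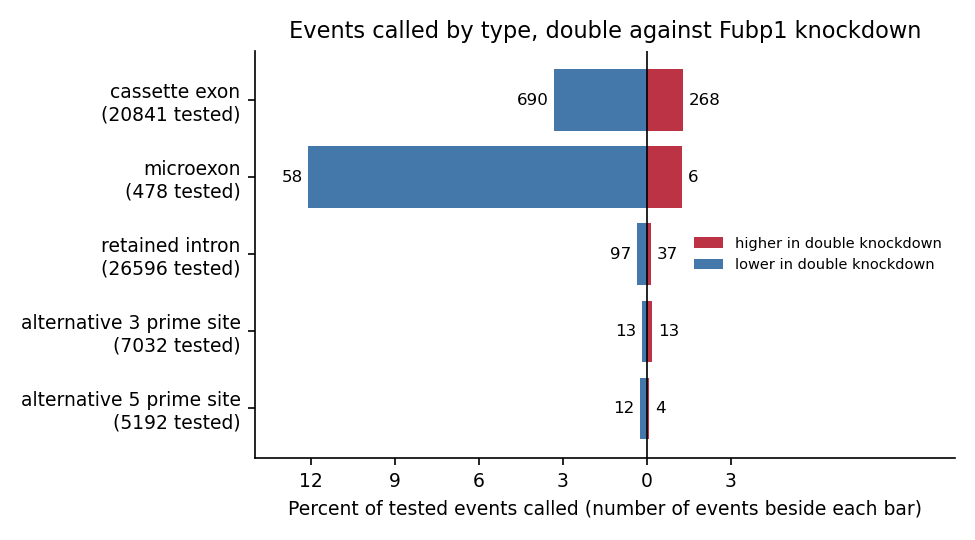
Bars give the percentage of tested events of each type that were called higher (right) or lower (left) in double than in Fubp1 knockdown, with the number of events beside each bar. Microexons have the longest bar on the lower side, 58 of 478, and alternative 3′ sites are even, with 13 on each side.

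The microexon with the largest difference lies in Senp6, which encodes a protease that trims SUMO chains. Its PSI was 83.0 and 83.7 in the Fubp1 knockdown libraries and 10.8 and 8.14 in the double knockdown libraries, against 91.8, 92.8 and 94.8 in siNT A, B and C. Every other library of these groups included it in at least 80.3% of transcripts, so the double knockdown stood alone. The difference was -73.9 points (limma, adjusted p = 0.000367), and -76.4 points with the set term (adjusted p = 0.00997). Senp6 held 8 called exons, all lower, so the microexon was not the gene's single changed site.

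Hook3 encodes an adaptor that links dynein to cargo along microtubules. Its 6 nt microexon was at 63.3 and 69.7 PSI in Fubp1 knockdown and at 12.3 and 7.22 in double knockdown (adjusted p = 0.00081). It stayed between 73.7 and 78.7 in siNT and Khsrp knockdown libraries. Its set-adjusted difference was -53.9 points (adjusted p = 0.0485).
Acap2 encodes an activator of Arf6 GTP hydrolysis in endosome traffic, and its 12 nt microexon went from 92.6 and 93.5 PSI to 35.2 and 30.9 (adjusted p = 0.00169). With the set term its difference was -60.3 points with an adjusted p of 0.0693, so the call was not kept.

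Clasp2 encodes a protein that stabilises microtubule plus ends. Its 24 nt microexon was at 69.3 and 50.3 PSI in Fubp1 knockdown, a wide spread, and at 7.78 and 13.6 in double knockdown (adjusted p = 0.00292). Khsrp knockdown alone stood at 67.0 and 57.2, below the siNT range of 79.8 to 82.6.
Synj1 encodes synaptojanin 1, a phosphoinositide phosphatase that uncoats endocytic vesicles, and its 24 nt microexon showed the same order. It was at 74.4 to 78.2 in siNT, 52.6 and 57.3 in Khsrp knockdown, 55.7 and 55.6 in Fubp1 knockdown and 9.43 and 7.51 in double knockdown (adjusted p = 0.0243). With the set term the adjusted p was 0.0988 for Clasp2 and 0.336 for Synj1, with differences of -47.2 and -44.0 points.

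Of the 64 called microexon entries, 7 also passed with the set term: both Senp6 entries, Hook3, Nbea, Nckap1, Zdhhc2 and Sh3glb1. The last 4 were singled out after their values were seen. Nbea encodes neurobeachin, a large membrane-traffic protein, and its 9 nt exon went from 83.1 and 86.5 to 44.5 and 38.2 PSI (set-term adjusted p = 0.0485). Nckap1 encodes a subunit of the WAVE complex that drives branched actin, and its 18 nt exon went from 80.9 and 80.8 to 39.9 and 41.0 (set-term adjusted p = 0.0483). Sh3glb1 encodes endophilin B1, a membrane-bending protein, and its 24 nt exon fell from 23.2 and 17.3 to 1.39 and 1.94 (set-term adjusted p = 0.0232). The 27 nt exon of Zdhhc2, a palmitoyltransferase, started near full inclusion at 95.6 and 95.8 and fell to 70.5 and 61.6 (set-term adjusted p = 0.0212).

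Among longer cassette exons 690 were lower and 268 higher. The 690 had median PSIs of 96.0 in siNT, 91.6 in Fubp1 knockdown and 61.7 in double knockdown, so most were exons that cells normally include. The largest difference among the exons covered by at least 20 reads in each of the 4 libraries, and with no overlap between groups, was in Exoc5, a subunit of the exocyst that tethers secretory vesicles. Its 195 nt exon was at 86.4 and 92.2 PSI in Fubp1 knockdown and at 14.4 and 30.0 in double knockdown (adjusted p = 0.0441). Btaf1 encodes an ATPase that removes TATA-binding protein from DNA, and its 144 nt exon fell from 90.0 and 88.9 to 23.1 and 26.0 (adjusted p = 0.00482). Pikfyve makes endosomal phosphoinositides, and its 84 nt exon went from 96.0 and 89.2 to 43.2 and 25.9 (adjusted p = 0.0296). These 3 exons were at 88.4 or higher in every siNT and Khsrp knockdown library.

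The 47 nt exon of Cenpk, a kinetochore protein, fell from 95.7 and 97.6 PSI to 44.8 and 35.2 (adjusted p = 0.00237). Zmym2 and Zmym4 encode related MYM-type zinc finger proteins, and a 151 nt exon of each was lower, by 56.7 and 58.8 points (adjusted p = 0.00659 and 0.00451). Hectd2, a HECT-domain ubiquitin ligase gene, had a 110 nt exon that went from 77.7 and 73.8 to 17.2 and 13.9 (adjusted p = 0.0475), and BC003331 a 141 nt exon that went from 96.5 and 95.8 to 37.2 and 35.6 (adjusted p = 0.0215). None of these 8 named lower exons passed with the set term, where their adjusted p lay between 0.121 and 0.463, while their set-adjusted differences stayed between -52.2 and -66.1 points.

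Cassette exons higher in double knockdown came from a lower starting level, with medians of 40.6 PSI in siNT, 39.6 in Fubp1 knockdown and 71.9 in double knockdown. Dst encodes dystonin, which links intermediate filaments, actin and microtubules. Its 111 nt exon was at 51.5 and 46.6 in Fubp1 knockdown and at 92.8 and 95.1 in double knockdown (adjusted p = 0.000428), and it passed with the set term (53.8 points, adjusted p = 0.0145). Khsrp knockdown alone held this exon at 82.1 and 83.7, above the siNT range of 55.2 to 65.3. Evl encodes an Ena/VASP protein that elongates actin filaments, and its 63 nt exon rose from 40.5 and 37.6 to 83.0 and 80.0 (adjusted p = 0.000895, and 0.054 with the set term). Khsrp knockdown alone also stood above siNT for Evl, at 66.7 and 64.1 against 40.9 to 51.5.

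Cep164 encodes a distal appendage protein of the centriole, needed for cilia, and its 297 nt exon rose from 36.6 and 36.0 to 84.9 and 79.8 (adjusted p = 0.00409). The siNT libraries ranged from 27.7 to 53.01 for it, with library C highest, and its set-adjusted difference was 24.5 points instead of 46.1. The 89 nt exon of Dnase1l1, a DNase I-like gene, rose from 39.7 and 40.0 to 93.8 and 82.5 (adjusted p = 0.00711). Nudt13, Serp2 and 2900056M20Rik each had an exon higher by 41.7 to 44.4 points, with adjusted p between 0.0114 and 0.024. Apart from Dst, the named higher exons did not pass with the set term.

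**Figure D2:**
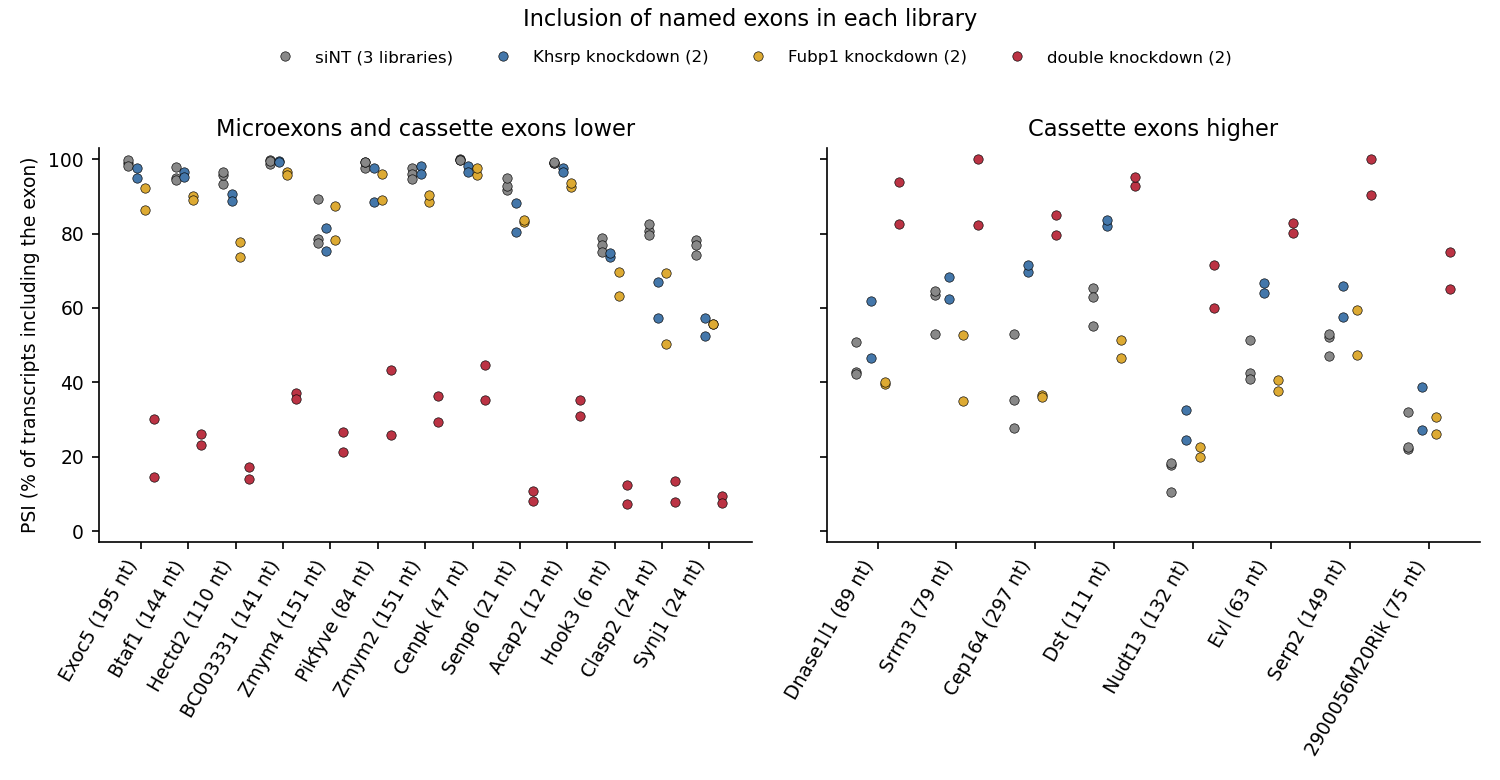
Points give the PSI of each named exon in each library, coloured by group, with the microexons and the lower cassette exons on the left and the higher cassette exons on the right. On the left the red double knockdown points lie at 44.8 or below, under the points of every other group, and on the right they lie at 60 or above.

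The exons that changed in opposite directions differed in base composition and setting, which the call did not use. Exons called lower had a median G+C content of 42.2% (698 with a matched sequence), those called higher 52.0% (220), and all tested exons 49.1% (17398). The median upstream intron was 3216 nt for exons called lower, 1437 nt for those called higher and 2258 nt for all tested. Downstream introns showed the same order, with medians of 3112 nt, 1766 nt and 2258 nt. The order also held among longer cassette exons with a PSI of 20 to 80 in Fubp1 knockdown, where the median G+C content was 43.9% for exons called lower, 52.7% for exons called higher and 50.0% for all tested. Of the sequences above, the Cenpk exon holds 31.9% G+C and the Evl exon 60.3%. These are descriptions of exons that share libraries and often genes, and no test was made over them.

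**Figure D3:**
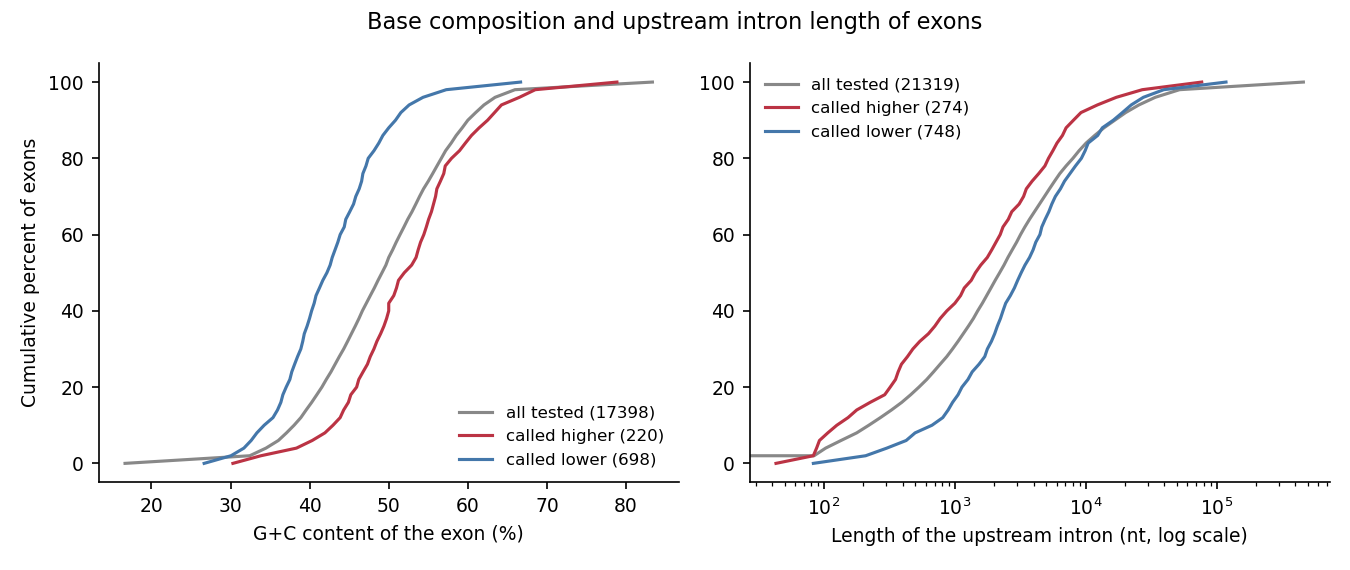
Curves give the cumulative percentage of exons by G+C content (left) and by upstream intron length on a log axis (right), for all tested exons and those called higher or lower. The curve of the lower exons lies toward low G+C, with a median of 42.2%, and toward long introns, with a median of 3216 nt.

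Most exons matched to GENCODE, 14157 of 17398, lie within coding sequence. Of these 14157 coding exons, 625 were lower and 131 higher, while exons in 5′ untranslated regions leaned the other way, with 30 higher and 19 lower of 977. Coding exons with a length divisible by 3 were called in 6.5% of cases and the others in 4.48%. Several exons of 1 gene often changed together. Of 740 genes with a called exon, 170 had at least 2, and in 151 of these all went in 1 direction. Alg6, a glucosyltransferase of the endoplasmic reticulum, Fam188a and Zfp280d had 8 called exons each, all lower, and Pcm1, the scaffold of centriolar satellites, had 7, all lower. Exons of 1 gene share its transcripts and are not independent.

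Gene lists for the hosts were counted against the 1.99% called among all events. Genes of vesicle transport had 42 of 737 events called (5.7%), 35 of them lower. Genes of actin and adhesion had 28 of 647 (4.33%), with 23 lower, and genes of microtubules, motors and the centrosome 27 of 586 (4.61%), with 18 lower. Membrane skeleton genes had 2 of 67 (2.99%), both lower. The base of 1.99% mixes cassette exons, called at 4.6%, with introns, called at 0.504%. The mix of event types in each list was not counted, so nothing is read from these shares, and no set test was run.

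Splicing regulators had 18 of 431 events called (4.18%), 9 in each direction. Ptbp2, the neuronal polypyrimidine tract-binding protein, lost inclusion of its 34 nt exon, from 71.1 and 76.6 PSI to 26.5 and 18.2 (adjusted p = 0.00613, and 0.169 with the set term). Its RPKM, a read count scaled to transcript length and library depth, given as 1 value per group, was 73.7 in Fubp1 knockdown and 43.3 in double knockdown. Srrm3, which promotes neuronal microexons, had a 79 nt exon that rose from 52.7 and 34.9 to 82.3 and 100 (adjusted p = 0.0452), with only 24 reads in double knockdown B. This call was lost in other limma fits, at an adjusted p of 0.359 with the set term, 0.067 with the replicate letter as a block and 0.0546 without weights. Rbm25, a splicing factor of the U1 particle, had a 54 nt exon that fell from 84.7 and 81.0 to 49.8 and 46.6 and also passed with the set term (adjusted p = 0.0486). A 111 nt intron of Hnrnpl was retained at 34.4 and 37.1 in Fubp1 knockdown and at 6.51 and 6.55 in double knockdown (adjusted p = 0.00172), while with the set term the difference was -14.98 points instead of -29.2 (adjusted p = 0.0583). Hnrnpa2b1, whose protein binds splicing silencers, had a 73 nt exon that rose from 48.3 and 48.1 to 68.2 and 70.6 (adjusted p = 0.0433), a difference of 21.2 points, and of 34.1 points with the set term (adjusted p = 0.0483). Srrm4, the main activator of neuronal microexons, had an RPKM of 14.8 in Fubp1 knockdown and 7.58 in double knockdown, against 10.96 in siNT. Ptbp1, which represses many such exons, was at 301 and 264 RPKM. No event in Fubp1, Khsrp or Fubp3 was called.

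Introns were called less often than exons, at 0.504%, and 97 of the 134 were lower, that is, retained in a smaller share of transcripts. The 97 had a median retention of 30.0% in Fubp1 knockdown and 7.84% in double knockdown, with 32.5% in siNT and 21.7% in Khsrp knockdown. The direction differed with length: of introns up to 200 nt 22 were lower and 1 higher, of those above that and up to 1000 nt 49 and 5, and of longer introns 26 and 31. A 377 nt intron of Hap1, the huntingtin-associated protein 1 of neuronal transport, was retained at 72.0 and 74.7% in Fubp1 knockdown and at 31.0 and 27.04% in double knockdown (adjusted p = 0.00157, and 0.0141 with the set term). A 210 nt intron of Clcn2, a chloride channel gene, went from 69.0 and 57.5% to 20.8 and 12% (adjusted p = 0.0081), and introns of 0610011F06Rik and Clec18a were each lower by 44.2 points. The 4703 nt intron of Cnot4, a ubiquitin ligase of the CCR4-NOT deadenylase, went the other way, from 15.4 and 16.9% to 70.0 and 56.2% (adjusted p = 0.0459), although Khsrp knockdown alone was at 5.56 and 4.62%. With the set term the other 4 named introns did not pass, with an adjusted p of 0.281 for Clcn2, 0.0956 for 0610011F06Rik, 0.132 for Clec18a and 0.636 for Cnot4.

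Alternative splice sites changed little in number. Gdi2, a Rab GTPase inhibitor gene, raised use of a 3′ site that adds 30 nt from 31.4 and 32.5% to 78.1 and 76.2% (adjusted p = 0.00182). That site was used at 5.65 to 9.67% in siNT and Khsrp knockdown, so it had the order siNT and Khsrp knockdown, then Fubp1 knockdown, then double knockdown. Cask, a synaptic scaffold kinase, raised a 15 nt site from 43.4 and 55.3% to 91.8 and 84.1% (adjusted p = 0.0177), and Fam48a lowered a 237 nt site by 41.0 points (adjusted p = 0.0249). Among 5′ sites, a 13 nt site of Cenpk rose from 19.7 and 12.2% to 54.4 and 55.8% (adjusted p = 0.00848). Lysmd4 lowered a site by 28.5 points (adjusted p = 0.0314), and Hdac6, the tubulin deacetylase, lowered one by 21.5 points (adjusted p = 0.0225). None of these 6 sites passed with the set term, where their adjusted p lay between 0.0881 and 0.401.

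The effect of Khsrp knockdown in cells with normal Fubp1 can be read from 3 other libraries of the later set, Khsrp knockdown A and B against siNT C, none of which enters the difference above. Of 1127 called events with a nonzero difference there, 894 (79.3%) went in the same direction as in Fubp1-depleted cells, against 54.7% of all tested events and 63.9% of tested events whose double minus Fubp1 difference reached 10 points. The size was smaller, with a median absolute difference of 2.76 points against 23.02 points. Called microexons shared the direction in 56 of 63 cases (88.9%), and all 21 that differed by at least 10 points in Khsrp knockdown alone did so in the same direction. Among called events of any type with such a difference 185 of 196 did so, a share near that of microexons, and among all tested events 1924 of 3166. The share over all tested microexons was not computed. Synj1 (-19.5 points), Clasp2 (-17.6) and Dst (27.7) were among the named exons with a sizeable difference in Khsrp knockdown alone, whereas Hook3 (-0.745), Btaf1 (1.26) and Zmym2 (2.42) were near 0.

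**Figure D4:**
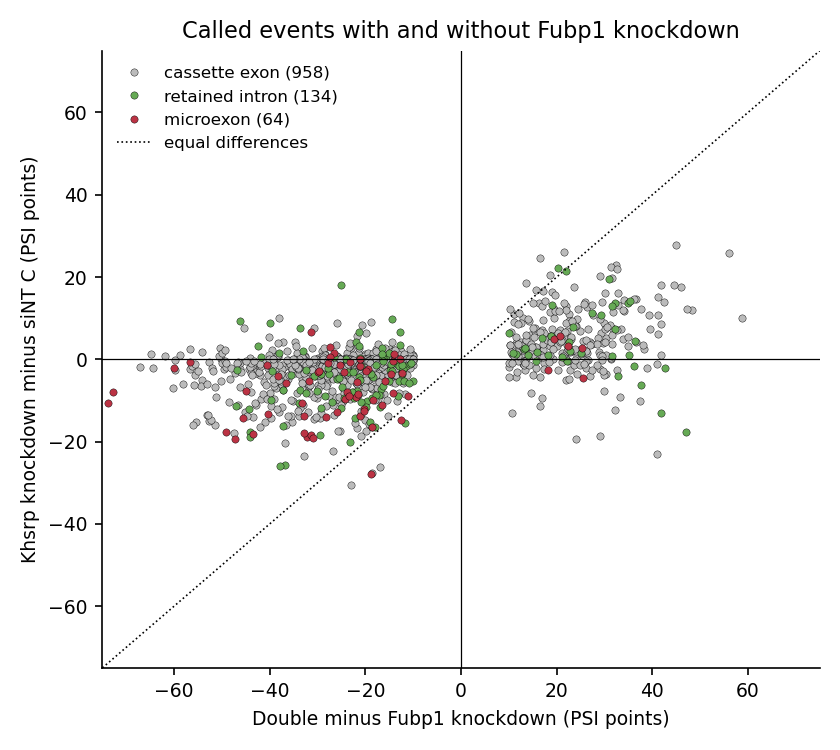
Each point is a called event, with its difference between double and Fubp1 knockdown on the x axis and between Khsrp knockdown and siNT C on the y axis, both in PSI points, coloured by type. Most points lie nearer the horizontal line at 0 than the dotted line of equal differences, and 79.3% of those with a nonzero y value have the same sign on both axes.

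The departure from additivity asks whether Khsrp knockdown changed an event by a different amount with and without Fubp1 knockdown. On the log odds scale 45 of the 1198 called events departed at an adjusted p under 0.05 by limma, of 58 (0.0964%) among all tested events. The double knockdown libraries enter both the call and this test, so the 2 counts are not independent. Senp6 (adjusted p = 0.02) and Hook3 (adjusted p = 0.0234) departed among the named events. In both the double knockdown lay far below what the single knockdowns showed: Senp6 was at 84.3 ± 5.59 PSI (SD, n = 2) in Khsrp knockdown, 83.3 ± 0.453 (SD, n = 2) in Fubp1 knockdown and 9.49 ± 1.91 (SD, n = 2) in double knockdown. Without double knockdown A the count was 0 (239 of 251 called events at an unadjusted p under 0.05 by limma), without double knockdown B also 0 (256 of 276), without Fubp1 A it was 4 and without Fubp1 B 7. With all libraries 944 of the 1198 had an unadjusted p under 0.05. The share of all tested events at that unadjusted p was not computed, and the calls were chosen on libraries that enter this test. Nothing is therefore read from the unadjusted counts.

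Expression was deposited as 1 RPKM value per group, so it is described with no test. The targets came first: Khsrp was at 47.0 RPKM in siNT, 48.2 in Fubp1 knockdown, 8.06 in Khsrp knockdown and 6.77 in double knockdown. Fubp1 was at 180 in siNT, 27.9 in Fubp1 knockdown and 19.8 in double knockdown, and Fubp3 at 68.5, 79.9 and 54.2. The labels and the targeted genes thus matched in both groups. Of 13148 genes with at least 1 RPKM in either group, 903 (6.87%) were at least 2-fold higher in double knockdown and 637 (4.84%) at least 2-fold lower, on the log2(RPKM + 0.5) scale, with a median log2 ratio of -0.02.

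Transcript length moved with these ratios. The 11219 genes with a GENCODE protein-coding transcript were divided by its length into 5 bins of near equal size. The bin of the shortest transcripts (up to 1750 nt) had a median log2 ratio of 0.43 and that of the longest (from 5099 nt) one of -0.35. Against siNT, the shortest and the longest bin had medians of -0.22 and 0.14 in Fubp1 knockdown, 0.22 and -0.19 in Khsrp knockdown, and 0.24 and -0.20 in double knockdown. Fubp1 knockdown thus sloped opposite to Khsrp and double knockdown. The slope went with Khsrp knockdown and with the library set alike, which cannot be told apart here, and the part of length in any ratio was not tested. Each ratio was therefore also centred on the median of its length bin, which left 366 genes at least 2-fold higher and 287 at least 2-fold lower.

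Genes of amino acid supply and the integrated stress response had the highest median of the gene lists, 0.57 before and 0.58 after centring, with 11 of 40 genes at least 2-fold higher (7 after centring) and none lower. Ddit3, which encodes the stress transcription factor CHOP, was at 19.2 RPKM in Fubp1 knockdown and 74.6 in double knockdown. Psph, the last enzyme of serine synthesis, was at 45.1 and 168 RPKM, the stress protein gene Nupr1 at 68.7 and 245, and Gdf15, a secreted stress hormone, at 1.67 and 6.32. Ddit3, Psph and Gdf15 were lower in Fubp1 knockdown than in siNT, where they stood at 45.6, 115 and 9.75 RPKM, so part of each ratio lies in the Fubp1 knockdown value.

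Smooth muscle type actomyosin genes had a median of 0.53, or 0.54 after centring, with 6 of 31 at least 2-fold higher and 1 lower. Myl9, a regulatory myosin light chain gene, was at 4.71 RPKM in siNT, 54.9 in Khsrp knockdown, 42.3 in Fubp1 knockdown and 139 in double knockdown. Acta2, smooth muscle actin, was at 3.89, 9.01, 22.9 and 60.9 in the same order. Tagln and Cnn1 stayed at or below 2.45 RPKM in all 4 groups. Genes of G2 and mitosis had a median of 0.39, or 0.52 after centring, with 4 of 54 at least 2-fold higher (3 after centring), near the 6.87% of all genes. Before centring these were Cks2, Cenpa, Birc5 and Cdca8. After centring Cks2 (1.06) and Birc5 (1.14) stayed past 2-fold, while Cenpa (0.66) and Cdca8 (0.60) did not. Cks2, a cofactor of cyclin-dependent kinases, was at 313 RPKM in siNT, 166 in Fubp1 knockdown and 466 in double knockdown. Birc5, which encodes survivin, was at 226, 113 and 238, the centromeric histone gene Cenpa at 70.9, 42.9 and 92.0, and Cdca8, which encodes borealin, at 68.2, 36.5 and 75.1. All 4 were lower in Fubp1 knockdown than in siNT, so part of each ratio lies in the Fubp1 knockdown value. Targets of p53 had 4 of 29 at least 2-fold higher and none lower, among them the cell cycle inhibitor gene Cdkn1a, at 22.5 RPKM in siNT, 9.84 in Fubp1 knockdown and 24.3 in double knockdown. After centring 4 of the p53 targets were higher and 1 lower.

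Sympathoadrenal transcription factors, which set the identity of the neuroblastoma lineage, had a median of -0.56, or -0.48 after centring, with 6 of 17 at least 2-fold lower (4 after centring) and none higher. Isl1 was at 20.6 RPKM in Fubp1 knockdown and 8.11 in double knockdown, Phox2a at 79.4 and 33.4, Insm1 at 20.8 and 9.12 and Myt1 at 23.4 and 10.0. Of these named genes Myt1 (-0.84) was no longer past 2-fold after centring. Axon guidance genes had a median of -0.76 with 7 of 27 at least 2-fold lower. These transcripts are long (median 5869 nt), and after centring the median was -0.43 with 3 genes lower. Slit2, a repellent ligand, was at 45.7 and 13.3 RPKM, the semaphorin genes Sema6c and Sema6d at 7.35 and 1.79 and at 20.1 and 7.39, and the receptor gene Plxna4 at 29.0 and 11.8. Plxna4 (-0.91) was no longer past 2-fold after centring. Neuronal and granule genes had 2 of 35 lower, Celf4 and the heavy neurofilament gene Nefh, and none higher, which is near the 4.84% of all genes. After centring 4 were lower and 1 higher.

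Transcripts with AU-rich elements and immediate early genes, the class that Khsrp is known to destabilise, had a median of 0.26, or 0.16 after centring, with 4 of 29 at least 2-fold higher and none lower. Atf3, a stress-induced transcription factor gene, was at 4.55 RPKM in Fubp1 knockdown and 14.98 in double knockdown. Plaur, the urokinase receptor gene, was at 12.7 and 37.3, and Vegfa, the vascular growth factor gene, at 53.9 and 144. In Khsrp knockdown and siNT, Plaur was at 36.3 and 29.2 RPKM, Vegfa at 102 and 84.2, and Atf3 at 5.12 and 5.06. Btg2, also past 2-fold, was at 2.00 and 0.99. The authors' log2 fold change of Vegfa in Khsrp knockdown against siNT was -0.17. By the difference of the authors' log2 fold changes against siNT, 4 genes of the list were past 2-fold, but Vegfa was not (0.83). Factors that bind AU-rich elements or degrade mRNA had 4 of 38 at least 2-fold lower and none higher: the deadenylase genes Parn (35.1 and 12.9 RPKM), Cnot6 (123 and 54.9) and Cnot6l (26.8 and 12.7), and the nonsense surveillance gene Upf2 (31.3 and 10.9). These transcripts are long as well (median 4464 nt), and after centring 2 were past 2-fold with a median of -0.01. By the difference of the authors' log2 fold changes against siNT, 1 was past 2-fold. In the microRNA processing list 1 of 22 genes was at least 2-fold lower, Drosha, the nuclear microRNA nuclease (38.2 and 17.2 RPKM). None was higher, and no gene of this list was past 2-fold after centring.

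Ubb, which encodes a chain of ubiquitin repeats, was at 960 RPKM in siNT, 158 in Khsrp knockdown, 916 in Fubp1 knockdown and 216 in double knockdown. Its level was lower in both groups with Khsrp knockdown than in both groups without it. Splicing regulator genes had 3 of 75 at least 2-fold lower, Celf4, Nova1 and Mbnl1, and none higher, near the 4.84% of all genes. After centring 4 were lower, and Nova1 (-0.89) and Mbnl1 (-0.85) were no longer past 2-fold. The medians of the cholesterol, glycolysis and hypoxia, S phase, interferon-stimulated, matrix and adhesion, and MYC target and nucleolar lists lay between -0.12 and 0.20, with at most 3 genes past 2-fold in either direction. After centring the median was 0.30 for matrix and adhesion genes (0.12 before) and 0.15 for cholesterol genes (0.01 before).

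The authors' deposited table gives each group against siNT, with an FDR that rests on the replicates. The 2 comparisons share the siNT libraries, so their values are set side by side only. In the authors' deposited table Ddit3 had a log2 fold change of -1.18 in Fubp1 knockdown (FDR = 2.46e-06) and of 0.70 in double knockdown (FDR = 0.00539). Isl1 had 0.20 (FDR = 0.36) and -1.06 (FDR = 4.2e-11) in the authors' deposited table, and Slit2 0.55 (FDR = 0.00181) and -1.79 (FDR = 2.78e-26). For Atf3 the authors' deposited table gives -0.37 (FDR = 0.392) and 1.58 (FDR = 3.32e-08), and for Drosha -0.17 (FDR = 0.603) and -1.52 (FDR = 7.92e-14). Myl9 stood at 3.28 and 4.76 in the authors' deposited table, past the FDR threshold in both groups, while Psph had -1.01 (FDR = 0.0067) in Fubp1 knockdown and 0.29 (FDR = 0.537) in double knockdown.

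**Figure D5:**
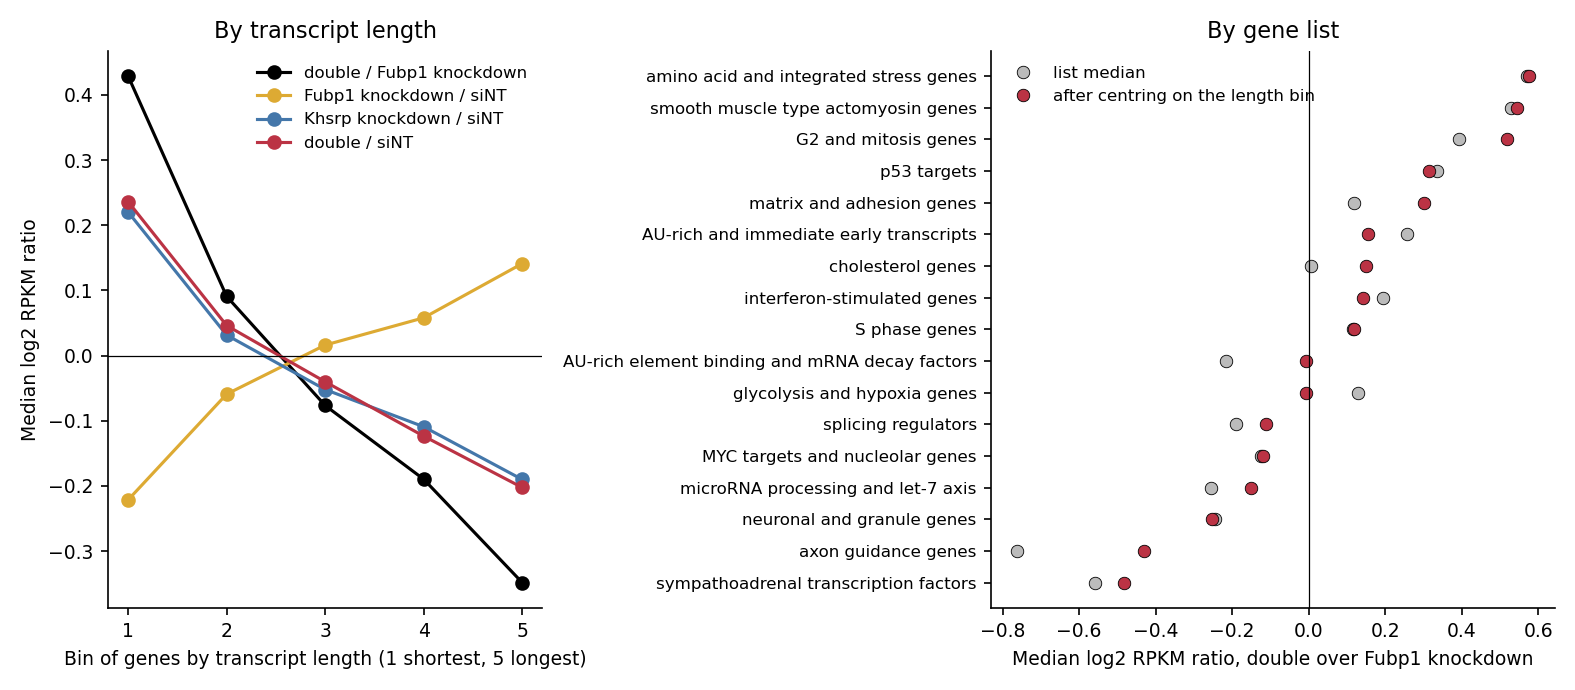
The left panel gives the median log2 RPKM ratio in each bin of genes by transcript length, for 4 pairs of groups, and the right panel the median log2 ratio of double over Fubp1 knockdown for each list with at least 10 genes, before (grey) and after (red) centring on the length bin. The double over Fubp1 line falls from 0.43 to -0.35, and the axon guidance list moves most with centring, from -0.76 to -0.43.

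The single genes furthest from 0 by the ratio alone were mostly pseudogenes, clone-named loci and small RNA genes, many of them listed at 0 in 1 group, and are not described. Among 9521 protein-coding genes with at least 1 RPKM in both groups and 5 RPKM in 1 of them, a limit chosen after the values were seen, 440 were at least 2-fold higher and 323 lower. The high end held Crip1, a LIM-domain protein gene (86.5 RPKM in Fubp1 knockdown and 538 in double knockdown), Rpl22l1, a ribosomal protein paralog (18.5 and 136), and Abracl (34.1 and 188). These 3 have short transcripts, and their ratios after centring were 2.20, 2.42 and 2.02 on the log2 scale. Ptgr1, an oxidoreductase gene (3.90 and 26.1), Cyb5r2, a cytochrome b5 reductase gene (5.61 and 34.6), and the interferon-induced membrane protein gene Ifitm3 (20.1 and 96.7) followed. The low end, beside Khsrp and Ubb, held the protein kinase C gene Prkca (12.2 and 2.18 RPKM), the neurodevelopmental scaffold gene Disc1 (22.3 and 4.15), the cannabinoid receptor gene Cnr1 (64.4 and 15.7) and the ubiquitin ligase gene Dzip3 (17.9 and 3.75). Reads of Rpl22l1 and other ribosomal protein genes can be shared with near-identical pseudogenes, so their values are uncertain.

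Host genes of exons that fell had lower RPKM ratios of double over Fubp1 knockdown than hosts of all tested exons. The median log2 ratio was -0.39 for 463 genes with an exon called lower and -0.12 for 6198 genes with any tested exon, and 9.72% against 3.92% were at least 2-fold lower (3.67% against 2.04% after centring). Where the lower exon was coding and its length not divisible by 3, the median was -0.50 (216 genes), and where it was divisible by 3, -0.37 (243 genes). These genes have long transcripts, and after centring on the length bin the medians were -0.19, -0.03, -0.31 and -0.16 in the order given. Among named hosts, Btaf1 was at 25.4 RPKM in Fubp1 knockdown and 13.9 in double knockdown, and Exoc5 at 23.7 and 11.7. Zmym2 was at 85.2 and 33.4, and Cenpk at 77.7 and 71.3. The named exons of Btaf1 (144 nt) and Exoc5 (195 nt) have lengths divisible by 3, and those of Zmym2 (151 nt) and Cenpk (47 nt) do not. These single hosts thus did not follow the order by exon length. Genes with an intron called lower had a median of 0.04 (80 genes) and those with an intron called higher -0.41 (29 genes), or 0.08 and -0.23 after centring.

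Markers of other cell types were low in both groups. Of 26 such genes 5 reached 1 RPKM, 11 were listed at 0 in double knockdown, and their summed level was 10.7 RPKM in double knockdown and 8.9 in Fubp1 knockdown. The astrocyte filament gene Gfap was the 1 marker past 2-fold, at 0.33 RPKM in siNT, 3.30 in Khsrp knockdown, 0.67 in Fubp1 knockdown and 2.14 in double knockdown, with a log2 fold change of 2.57 in double knockdown (FDR = 0.000679) in the authors' deposited table. The macrophage marker gene Cd68 was at 0.92 and 1.86 RPKM in Fubp1 and double knockdown. The part of other cell types in the results was not tested.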

How the data were processed

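RNA-seq of N2A cells was analysed from the deposited tables. The splicing table gave PSI as a percent per library together with corrected read support, deposited by the authors in vast-tools format. No label or header used here names the build of its coordinates. The expression table gave RPKM per group and, per the file headers, log2 fold changes, p-values and FDR against siNT. The submitters' processing notes name Salmon 0.14.1, edgeR and mm10. No label or header used here says how replicates were combined into RPKM.

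Inclusion and exclusion reads were converted to log2 odds (pseudocount 0.5) and fitted with limma 3.58.1 in R 4.3.3 over all 11 libraries with 1 mean per group, precision weights (binomial variance plus a library SD of 0.2) and a trend on read depth. Events needed at least 10 reads in every library and a mean PSI of 1 to 99. In simulated data with 2000 changed events of the 60139, the fit recovered 87.6% of 30-point and 44.8% of 15-point differences, with 1.12% false calls. With 200 changed events it recovered 76% and 13%, with 3.26% false calls. The simulated libraries differed only by counting error and independent noise, and changed events were drawn away from both ends of the PSI range. No difference between library sets was simulated, so these shares of false calls do not cover one and are not an estimate for the real calls. Depth limits small differences: the median was 99 to 221 reads per tested event.

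Exons were matched to GENCODE vM21 (GRCm38) by gene, exon length and flanking intron length, giving 861 of 958 called cassette exons and 57 of 64 called microexons. Named events had at least 20 reads in each of the 4 libraries and no overlap between groups, ranked by PSI difference with 1 per gene: 8 cassette exons in each direction, 5 microexons, 5 introns, 3 alternative sites of each kind and 5 events in splicing regulators. Named genes were the targets, the 10 highest and 10 lowest ratios among genes with at least 5 RPKM, and up to 4 members of each list. RPKM ratios used a pseudocount of 0.5. The comparison, gene lists and tests were chosen with earlier results of these data known.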

Additional observations from a re-analysis of the deposited data

Results flagged for a closer look

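The effect of Khsrp knockdown differed with and without Fubp1 knockdown, by limma's interaction test on log odds, for the 21 nt microexon of Senp6 (adjusted p = 0.01999) and the 6 nt microexon of Hook3 (adjusted p = 0.02343). Senp6 differed by -73.9 points between double and Fubp1 knockdown and by -10.6 points between Khsrp knockdown and siNT C, and Hook3 by -56.8 and -0.745 points. Across the called events 45 departed in this way, 40 of them lower and 5 higher in double than in Fubp1 knockdown. With a term for the library set 106 events were called, and 34 of those departed. This count and the 45 therefore rest on different sets of called events.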

How the results depend on the processing

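The 36 named events kept their direction in each alternative fit computed for them. The fit requiring 20 reads per library held 35 of the 36, and none was computed for the limit of 15 points. Outside the fits with the set term this direction was fixed in advance, so nothing is read from it. Most fits used the same PSI differences, and the named events were chosen for no overlap between groups. The number of calls depended on the fit. Of 1198 called events (328 higher, 870 lower), the unweighted fit with a trend on mean log odds called 709 (195 and 514), the fit without a limit on mean PSI 659 (187 and 472), and the fit with a term for the library set 106 (15 and 91). The binomial variance alone with that term, chosen after seeing the data, called 222 (40 and 182). Leaving out 1 of the 4 libraries gave 251 to 534 called events, 72 to 107 higher and 171 to 427 lower, and where an arm had 1 library it was assumed to vary like the other groups. The other settings (binomial variance alone, only the 4 libraries, at least 20 reads, pseudocount 1, at least 15 points, and the fit without Rbm38 libraries, the last chosen after seeing the data) stayed within 1.5 times. Among the 36 named events, 30 were no longer called with the set term, 12 without the limit on mean PSI, and 15 to 20 without 1 library.

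The count departing from additivity was 45 and became 0 in the unweighted fit (589 of its 709 called events at an unadjusted p under 0.05), 102 with binomial variance alone, 23 without the limit on mean PSI, 85 with a pseudocount of 1, 34 with the set term and 0 to 7 without 1 library. Each count was taken among the events called in its own fit, such as the 106 called with the set term, so the counts do not share a base. The share of all tested events at an unadjusted p under 0.05 was not computed. The count departing cannot be computed from only the 4 libraries and was not run for the settings chosen after seeing the data. The share of called events with the same direction in Khsrp knockdown lay between 73.6 and 87.6% and was not computed with the set term, where both differences would share siNT C. The cause of these changes was not tested.

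The differences between replicates A and B in double and in Fubp1 knockdown had a correlation of 0.0331 over events. Most of these differences lay within counting error, so this value cannot show whether the replicate letters pair the libraries. With the replicate block 1411 events were called, 1097 of them among the 1198, and 20 departed from additivity. Of the 36 named events only the Srrm3 exon lost its call with the block (adjusted p = 0.067).

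For expression, at least 5 RPKM in either group left 585 genes higher and 390 lower, by construction from fewer genes, and centring on the median of the length bin, chosen after seeing the data, left 366 and 287. The other settings stayed within 1.5 times of 903 and 637.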
